A study of Rattus norvegicus with 15 samples.

Results

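The titles of the 15 arrays number their biochips 10 to 16 and 20 to 27, and the labels do not say what the 2 number sets stand for. All 15 arrays of the series were used: the 8 numbered 20 to 27, called high-numbered here, were compared with the 7 numbered 10 to 16, called low-numbered, with the treatment group kept as a term of the fit. Of 14506 genes tested, 79 (0.545%) differed between the number sets at a Benjamini-Hochberg adjusted p under 0.05 in limma, 33 of them higher (0.227%) and 46 lower (0.317%) in the high-numbered biochips. Described here are the 64 of these (0.441% of genes tested) in which, within each of the 3 treatment groups, every high-numbered array also lay on the same side of every low-numbered array. They comprised 27 genes that were higher (0.186%) and 37 that were lower (0.255%) in the high-numbered biochips.

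Each array measured the RNA of 1 microfluidic biochip, a small perfused chamber, of freshly isolated primary rat hepatocytes. After 24 h of adhesion the cells were perfused for 24 h with medium holding flutamide, an androgen receptor blocker known for liver toxicity, or its solvent DMSO. The low-numbered set held 2 DMSO biochips (10 and 11), 3 at 10 µM flutamide (12 to 14) and 2 at 100 µM (15 and 16), and the high-numbered set held 3 DMSO (20 to 22), 3 at 10 µM (23 to 25) and 2 at 100 µM (26 and 27). All groups shared a seeding medium with insulin and fetal serum, a collagen coat, and a perfusion medium with insulin, transferrin and selenium. The labels name no strain, sex, age or animal, so a p-value here measures the spread between these biochips, which may share a cell isolation. Values are log2 expression, in which a difference of 1 is a doubling, and a difference is always high-numbered minus low-numbered.

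The cells carried the messages of hepatocytes in both number sets. The 16 hepatocyte markers measured had a median level at percentile 97.6 of all genes, and none was called between the sets. Their summed level on the linear scale was 38300 to 42240 in the low-numbered and 34760 to 48860 in the high-numbered biochips. Arrays have no read depth, so their number limits the precision. Array 23 (10 µM) stood farthest from the rest, at 58.06 on a first principal component that held 25.6% of the variance, and arrays 23, 15 and 24 had the lowest quality weights (0.205, 0.427 and 0.549). The number set took 13.2% and the treatment 16.0% of the total sum of squares over all genes. The treatment divides the arrays into more groups than the number set does, so by chance alone it takes a larger share. These shares therefore do not rank the treatment above the number set. In the same fit limma called 0 genes for 10 µM and 0 for 100 µM flutamide against DMSO, with 1109 (7.65%) and 993 (6.85%) genes at an unadjusted p under 0.05, against 1590 (11.0%) for the number set.

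Several of the 64 genes belong to systems that are well known in liver. The RT1 genes are the rat major histocompatibility complex, a dense cluster in which class I genes encode the surface chains that show peptides to T cells and natural killer cells. Inbred rat strains carry different RT1 gene sets and alleles. Gpx2 encodes a glutathione peroxidase that removes peroxides and is a target of the antioxidant factor NRF2. Cxcl10 encodes a chemokine induced by interferon that draws T cells.

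Upstream sequence is shown for 6 of these genes: Gpx2, Pla1a, RT1-N2 and RT1-CE5 because their differences were among the lowest, RT1-O1 as a further histocompatibility member, and Cxcl10 because it rose most. Cd46, whose difference of -1.64 was lower than that of Pla1a (-1.62), is not shown. Each run is the 250 bases before the annotated start, 5′ to 3′ on the gene's own strand, from RefSeq on assembly GRCr8. Capitals mark matches, on either strand, of 3 motifs: the interferon-response core AAGTGAAA, a kappa-B site (GGGAA, any base, TTCC) and the antioxidant-response core TGACNNNGC.
Gpx2: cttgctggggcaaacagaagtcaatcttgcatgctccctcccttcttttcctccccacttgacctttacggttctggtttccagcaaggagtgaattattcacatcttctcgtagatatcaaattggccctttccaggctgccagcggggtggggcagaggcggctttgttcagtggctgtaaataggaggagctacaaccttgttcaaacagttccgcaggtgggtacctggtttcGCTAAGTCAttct
Pla1a: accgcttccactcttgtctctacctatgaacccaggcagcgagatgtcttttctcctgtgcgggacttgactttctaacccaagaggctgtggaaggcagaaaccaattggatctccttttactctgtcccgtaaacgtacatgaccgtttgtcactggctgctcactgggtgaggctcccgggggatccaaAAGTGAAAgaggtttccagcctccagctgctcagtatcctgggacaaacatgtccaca
RT1-N2: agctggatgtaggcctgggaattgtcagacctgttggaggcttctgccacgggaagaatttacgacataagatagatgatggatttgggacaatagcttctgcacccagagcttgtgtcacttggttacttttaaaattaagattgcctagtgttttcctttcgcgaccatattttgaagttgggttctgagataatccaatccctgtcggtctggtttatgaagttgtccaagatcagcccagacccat
RT1-CE5: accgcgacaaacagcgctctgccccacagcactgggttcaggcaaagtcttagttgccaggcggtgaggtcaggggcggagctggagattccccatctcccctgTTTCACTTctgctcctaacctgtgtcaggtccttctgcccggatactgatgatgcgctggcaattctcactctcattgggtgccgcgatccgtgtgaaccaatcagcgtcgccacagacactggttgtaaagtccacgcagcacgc
RT1-O1: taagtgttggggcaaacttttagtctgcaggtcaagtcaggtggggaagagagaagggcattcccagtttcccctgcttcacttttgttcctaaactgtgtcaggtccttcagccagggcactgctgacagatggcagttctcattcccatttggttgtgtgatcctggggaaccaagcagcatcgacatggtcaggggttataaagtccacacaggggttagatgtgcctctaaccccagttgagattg
Cxcl10: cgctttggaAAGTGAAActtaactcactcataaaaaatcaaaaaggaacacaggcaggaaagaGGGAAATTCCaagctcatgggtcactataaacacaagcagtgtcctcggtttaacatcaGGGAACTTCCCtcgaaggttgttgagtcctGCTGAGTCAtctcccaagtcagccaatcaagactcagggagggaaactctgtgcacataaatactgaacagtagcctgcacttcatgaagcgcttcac
The windows lie at chr6:101230034-101230283, minus strand (Gpx2), chr11:75825376-75825625, plus strand (Pla1a), chr20:2646080-2646329, plus strand (RT1-N2), chr20:3484091-3484340, minus strand (RT1-CE5), chr20:2659687-2659936, plus strand (RT1-O1) and chr14:15988816-15989065, plus strand (Cxcl10). Gpx2 holds an antioxidant-response core 13 to 5 bases before its start, on the opposite strand. Cxcl10, which rose, also holds this core, 98 to 90 bases before its start and on the opposite strand. Of 33469 upstream windows of the same length in the table, 3373 (10.1%) hold that core. So do 7 of the 55 member genes with a window, 5 of them lower and 2 higher. Pla1a, RT1-CE5 and Cxcl10 are the 3 of those 55 that hold the interferon-response core, which is in 1.49% of all windows. The Cxcl10 window also holds kappa-B matches, of which a pair overlaps on opposite strands. It is the 1 of the 55 with that motif, which is in 0.290% of all windows. A match describes letters in this window and not a bound site.

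Gpx2 differed most. On the low-numbered biochips it read 9.40 and 9.03 in DMSO, 8.95, 8.98 and 9.34 at 10 µM and 9.26 and 9.07 at 100 µM. The high-numbered biochips gave 6.90, 7.69 and 7.02 in DMSO, 6.21, 6.91 and 6.13 at 10 µM and 6.63 and 5.87 at 100 µM. Every high-numbered value was below every low-numbered one, with a gap of more than 1 log2 unit. The difference was -2.52 (SE 0.19, limma adjusted p = 8.73e-06), a level 5.74-fold lower. Of the 28 NRF2 target genes measured, only Gpx2 was called lower and only Trib3, which the ER stress list also holds, was called higher. Their median was 0.03, against 0.00 over all genes. Nqo1, a quinone reductase, had a difference of -0.31 (adjusted p = 0.505), and Hmox1, heme oxygenase, one of 1.04 (adjusted p = 0.324).

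**Figure D1:**
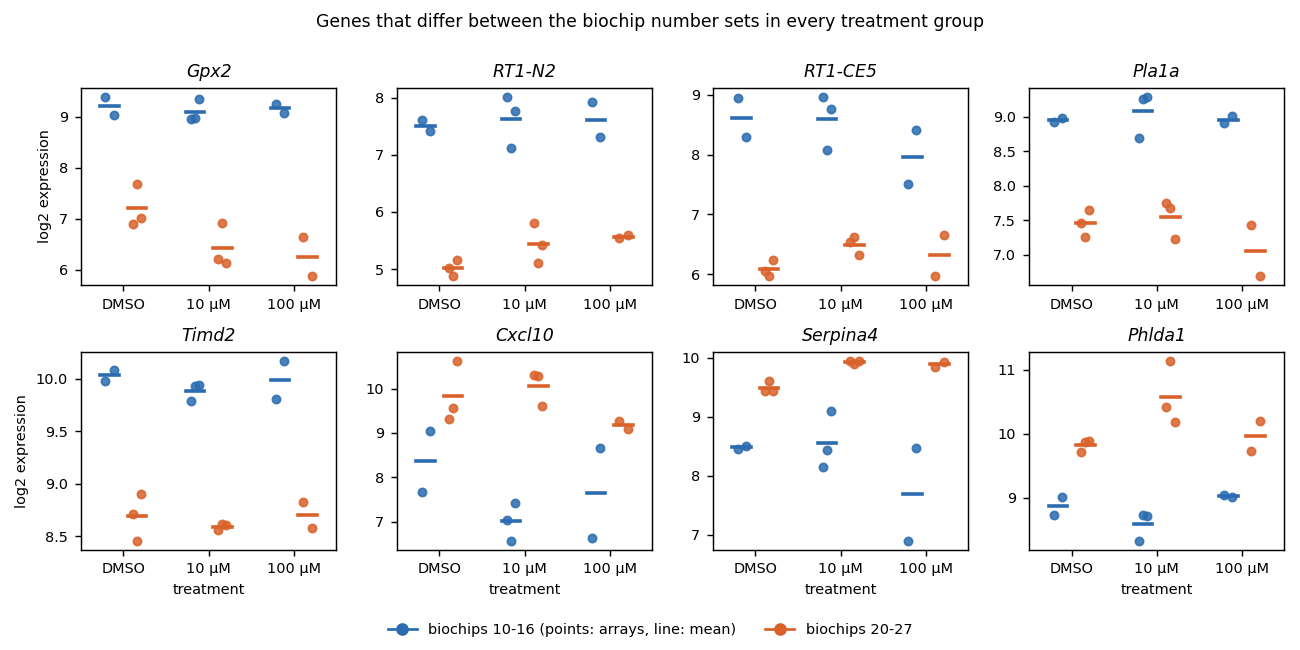
Log2 expression (vertical axis) of 8 genes in the 3 treatment groups (horizontal axis), with 1 point per array, blue for biochips 10 to 16 and orange for 20 to 27, and a line at the mean of each set. In every panel the orange and blue points of a treatment do not overlap, as the choice of genes required; Gpx2 lies at 8.95 or above in blue and at 7.69 or below in orange.

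Histocompatibility genes made up 4 of the 37 lower genes. RT1-N2, a nonclassical class I gene, read 7.62 and 7.41 in DMSO, 8.02, 7.12 and 7.76 at 10 µM and 7.92 and 7.31 at 100 µM on the low-numbered biochips. It read 5.03, 4.87 and 5.16 in DMSO, 5.81, 5.10 and 5.43 at 10 µM and 5.54 and 5.59 at 100 µM on the high-numbered ones, a difference of -2.25 (SE 0.15, adjusted p = 2.8e-06). The lowest low-numbered array was still above the highest high-numbered array by more than 1 log2 unit. RT1-CE5, a class I gene, read 8.94 and 8.29 in DMSO, 8.97, 8.07 and 8.76 at 10 µM and 7.50 and 8.41 at 100 µM in the low-numbered set. Its high-numbered values were 6.05, 5.96 and 6.23 in DMSO, 6.55, 6.62 and 6.32 at 10 µM and 5.97 and 6.66 at 100 µM, a difference of -2.12 (SE 0.19, adjusted p = 7.74e-05). The smallest separation for RT1-CE5 was at 100 µM, where array 15 was the lowest of the low-numbered arrays.

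RT1-CE7 and RT1-O1 changed less. RT1-CE7 ranged from 8.61 to 9.09 (median 8.87) in the low-numbered and from 8.24 to 8.62 (median 8.39) in the high-numbered biochips. RT1-O1, a dim gene, ranged from 4.52 to 5.35 (median 5.00) against from 3.86 to 4.84 (median 4.36). Over all 15 arrays both pairs of ranges overlapped, while within each treatment they did not. Both calls were near the threshold (adjusted p = 0.0341 and 0.0496), and were lost with 10 and 13 of the 15 single arrays left out in turn, respectively. A second RT1-CE7 probe set, the only other probe set of any of the 64 genes, gave -0.35 with an adjusted p of 0.529.

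The rest of the family did not follow. Of 35 RT1 genes measured, 4 were called (11.4%), all lower and all members, and 22 had a negative and 13 a positive difference with a median of -0.04. RT1-N3 had the next lowest value, -0.85 (adjusted p = 0.118). The class II genes RT1-Ba and RT1-Da, which encode chains of antigen-presenting cells, had differences of 0.42 and 0.36 (adjusted p = 0.634 and 0.767), with array 23 far above the rest in both. B2m, the light chain that all class I molecules share, had a difference of -0.08 (adjusted p = 0.706). Some RT1 genes are near-identical copies, and the family varies between rats. Signal may therefore be split between probe sets of different RT1 genes, which was not tested, and the level of any single one is uncertain. In the RefSeq gene order of assembly GRCr8, 1 coding gene lies between RT1-N2 and RT1-O1, and 1 between RT1-CE5 and RT1-CE7, all on chromosome 20.

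**Figure D2:**
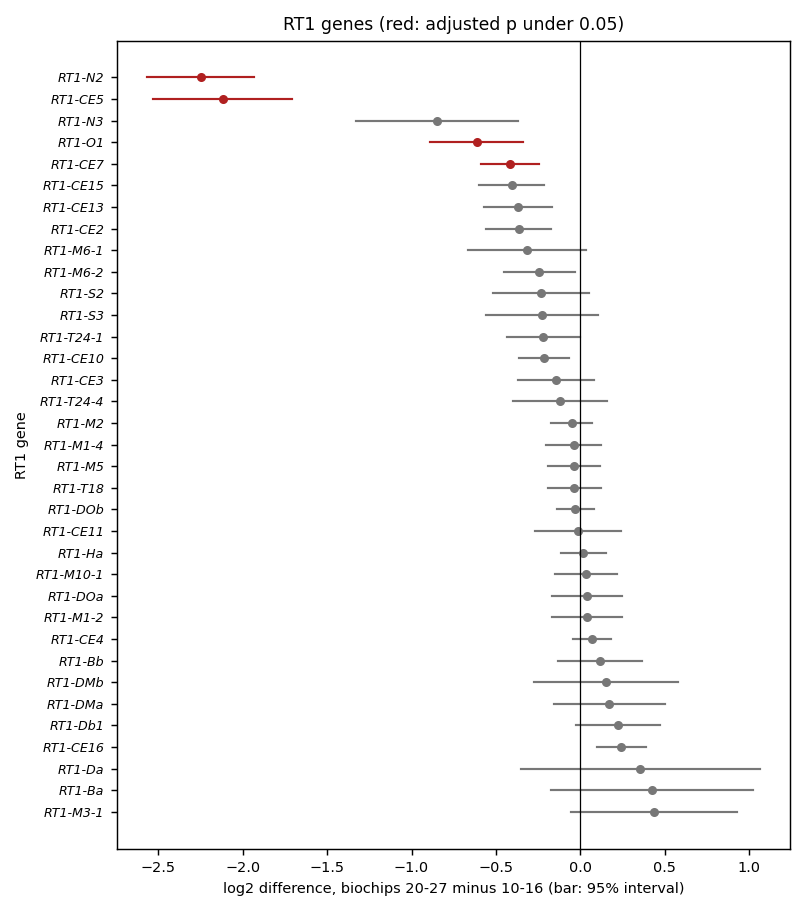
Log2 difference between biochips 20 to 27 and 10 to 16 (horizontal axis) for the 35 RT1 genes measured (vertical axis), with bars for the 95% interval from limma and red for an adjusted p under 0.05. RT1-N2 and RT1-CE5 stand apart near -2, and the genes in grey lie on both sides of 0.

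Other immune genes differed in both directions. Cxcl10 rose most of all genes that were higher. Its low-numbered values were 7.66 and 9.05 in DMSO, 7.04, 6.57 and 7.43 at 10 µM and 6.64 and 8.66 at 100 µM. The high-numbered values were 9.32, 9.57 and 10.63 in DMSO, 10.32, 10.28 and 9.61 at 10 µM and 9.28 and 9.09 at 100 µM. The sets were farthest apart at 10 µM and nearest in DMSO, where array 11 came close to array 20. The difference was 2.13 (SE 0.37, adjusted p = 0.0202), and without array 10, the one single array whose loss ended the call, its adjusted p was 0.0577. Without arrays 23, 15 and 24 together the difference was 1.56 (adjusted p = 0.0831). Of 41 interferon-inducible genes measured, Cxcl10 was the 1 that was called, and the list's median was -0.01.

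Timd2, a T cell immunoglobulin and mucin family receptor that binds ferritin, had the smallest error of the large differences. It read 9.98 and 10.08 in DMSO, 9.79, 9.93 and 9.94 at 10 µM and 9.81 and 10.17 at 100 µM on the low-numbered biochips. On the high-numbered ones it read 8.71, 8.46 and 8.91 in DMSO, 8.56, 8.61 and 8.61 at 10 µM and 8.82 and 8.58 at 100 µM. The difference was -1.31 (SE 0.077, adjusted p = 1.33e-06), close to the same size in each treatment (-1.34 within DMSO, -1.29 within 10 µM and -1.29 within 100 µM). Cd46, a regulator of complement, ranged from 6.50 to 7.90 (median 7.47) against from 4.48 to 6.43 (median 5.85), a difference of -1.64 (adjusted p = 0.00728), with array 15 the lowest low-numbered value. Plscr1, an interferon-inducible phospholipid scramblase that the interferon-inducible list does not hold, fell by 0.58 on the log2 scale. Tnfrsf1a, the main receptor for tumour necrosis factor, rose by 0.56, and Casp12, a caspase of the endoplasmic reticulum, rose by 1.20. Casp12 ranged from 5.77 to 6.91 (median 6.58) against from 7.16 to 8.60 (median 7.55), and its difference was largest in DMSO (1.80 within DMSO, 0.65 within 10 µM and 1.29 within 100 µM).

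Markers of other cell types gave few calls. Of 23 Kupffer cell and macrophage markers measured, 0 were called in limma, with 2 at an unadjusted p under 0.05, and their median was 0.12, with a range of -0.06 to 0.22 when 1 array was left out. Their summed linear level was 3058 to 4099 in the low-numbered and 2235 to 6425 in the high-numbered biochips, with array 23 the highest. Cd68, a macrophage lysosomal protein, had a difference of -1.42 (adjusted p = 0.0708), and within DMSO alone it was called at -2.69. Of 24 lymphocyte and natural killer markers 0 were called, with 0 at an unadjusted p under 0.05. The part of these cells in the RT1 and Cxcl10 values was not tested. In whole cultures, fewer cells of a type and less RNA per cell cannot be told apart.

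Lipid genes formed a further group. Pla1a encodes a phospholipase that acts on phosphatidylserine. It read 8.92 and 8.98 in DMSO, 8.69, 9.26 and 9.29 at 10 µM and 8.90 and 9.01 at 100 µM on the low-numbered biochips. The high-numbered set gave 7.47, 7.26 and 7.65 in DMSO, 7.75, 7.67 and 7.24 at 10 µM and 7.43 and 6.69 at 100 µM. The sets were separated in all 3 treatments, by -1.62 over all arrays (SE 0.13, adjusted p = 3.2e-05). Fads1, the delta-5 desaturase of polyunsaturated fatty acids, fell by 1.44 (adjusted p = 0.0374), from 8.18 to 9.36 (median 8.88) in the low-numbered and from 5.78 to 7.98 (median 7.51) in the high-numbered biochips. Array 23 gave the lowest Fads1 value, and without array 23 the gene stayed called, while it was not called with any of 9 other arrays left out in turn (largest adjusted p 0.103).

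Among genes of sterol handling, Fdps, which makes farnesyl diphosphate, fell by 0.63 (adjusted p = 0.0224) and Scarb1, the receptor that takes up cholesterol from high-density lipoprotein, fell by 0.52 (adjusted p = 0.036). The Scarb1 call was lost with 10 of the 15 single arrays left out in turn (largest adjusted p 0.0779), and its difference was -0.21 within DMSO, -0.47 within 10 µM and -0.95 within 100 µM (limma interaction adjusted p = 0.488, unadjusted 0.00473). Fdps was the 1 called gene of 20 of the cholesterol synthesis list, of which 19 had a negative and 1 a positive difference. An unadjusted limma p under 0.05 was reached by 13 of the 20, against 11% of all genes tested. The list's median was -0.35, against 0.00 over all genes, and -0.34, -0.64 and -0.17 within DMSO, 10 µM and 100 µM. Dhcr7, the last enzyme of the pathway, had a difference of -1.11 (adjusted p = 0.239), Idi1, the isopentenyl diphosphate isomerase, one of -1.04 (0.0902), and Fdft1, squalene synthase, one of -0.79 (0.0647), none of which passed the threshold. In all, 4 genes of the list did not overlap between the sets in every treatment group, as was so for 1.34% of all genes tested. With 1 array left out in turn the median lay between -0.41 and -0.25. Genes of 1 pathway are not independent, and the list was chosen with earlier results of these data known.

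Other lipid genes rose. G0s2, an inhibitor of the lipase that breaks down stored fat, rose by 0.97 and Cyp4a3, a fatty acid hydroxylase induced by the receptor PPARα, by 0.75. Cyp4a3 was the 1 called gene of 39 in the PPARα and fatty acid oxidation list, whose median was 0.15 over all arrays but 0.49 within DMSO, 0.01 within 10 µM and 0.11 within 100 µM. The Cyp4a3 call was lost with 10 of the 15 single arrays left out in turn (largest adjusted p 0.0866). Angptl4, a lipase inhibitor of the same list, was just outside the threshold (0.70, adjusted p = 0.0564). Pank3, which starts coenzyme A synthesis, fell by 0.53, and Isyna1, which makes inositol phosphate, rose by 0.39. Of 29 lipogenesis genes, Fads1 alone was called, and Fads2, the delta-6 desaturase of the same pathway, had a difference of -1.10 (adjusted p = 0.134).

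**Figure D3:**
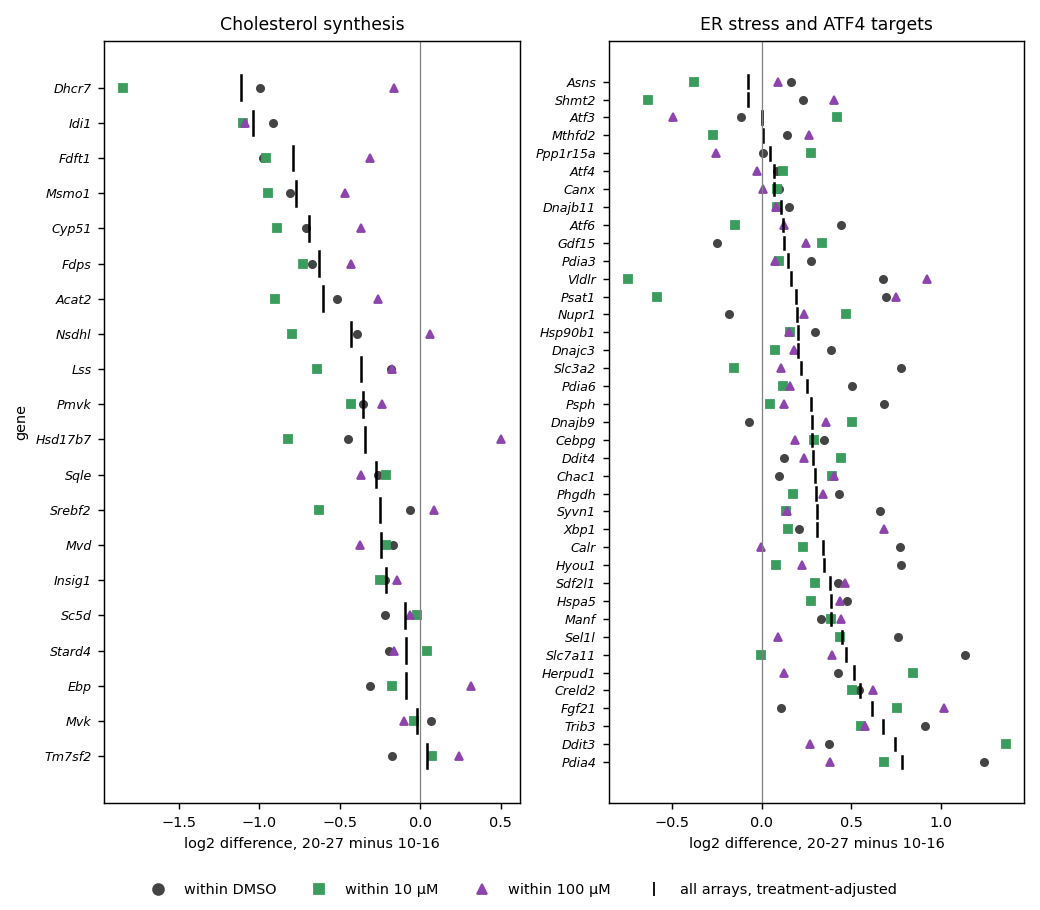
Log2 difference between biochips 20 to 27 and 10 to 16 (horizontal axis) for each gene (vertical axis) of the cholesterol synthesis list (left) and the ER stress and ATF4 list (right), within DMSO (circles), 10 µM (squares) and 100 µM (triangles), with a black tick for the treatment-adjusted value over all arrays. The ticks lie below 0 for 19 of 20 genes on the left and above 0 for 36 of 39 on the right, and the single treatments scatter around them.

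Of 39 ER stress and ATF4 genes measured, 1 was called. Trib3, a pseudokinase induced by the factors ATF4 and CHOP, rose by 0.68 (SE 0.12, adjusted p = 0.0253). It ranged from 6.75 to 7.41 (median 7.10) against from 7.28 to 8.12 (median 7.75), and its call was lost with 7 of the 15 single arrays left out in turn. Trib3 was that gene, while 36 of the 39 had a positive difference, 20 reached an unadjusted p under 0.05 and the median was 0.28. Over all 14506 genes 7364 had a positive difference, 11.0% reached that p and the median was 0.00. The list was chosen with earlier results of these data known. Within single treatments that median was 0.37 in DMSO, 0.18 at 10 µM and 0.23 at 100 µM. The chaperone Hspa5 had a difference of 0.38 (adjusted p = 0.0725), and Pdia4, a disulfide isomerase, one of 0.78 (0.0564). Atf4 itself had 0.07 (0.806). Txndc12, a thioredoxin of the endoplasmic reticulum that is not on the list, went the other way and fell by 0.57 (adjusted p = 0.00728), as did Ermp1, a peptidase of that organelle, by 0.40.

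Secreted proteins of the liver, taken as lists, gave few calls. Of 28 hepatocyte plasma proteins measured 1 was called, higher, 13 had a positive and 15 a negative difference, and the median was -0.04. Of 36 complement and coagulation genes 1 was called, higher, with a median of 0.01, and of 26 acute phase genes 1 was called, lower, with a median of -0.02. Cd46, a regulator of complement that was called lower, is not on the complement and coagulation list. The secreted members described next also include genes outside these lists. Serpina4, the kallikrein inhibitor kallistatin, read 8.45 and 8.51 in DMSO, 8.15, 8.44 and 9.10 at 10 µM and 6.90 and 8.47 at 100 µM on the low-numbered biochips. Its high-numbered values were 9.44, 9.61 and 9.44 in DMSO, 9.95, 9.90 and 9.94 at 10 µM and 9.84 and 9.94 at 100 µM. The high-numbered values lay close together, while array 15 was far below the other low-numbered arrays. The difference was 1.48 (SE 0.22, adjusted p = 0.0098). Mug2 and Mug1l1, murinoglobulin protease inhibitors that lie 1 coding gene apart in the RefSeq order and are near-identical copies, rose by 0.44 and 0.27. Their relative Mug1 was called as well (0.48, adjusted p = 0.0399) but overlapped within a treatment group. Plg, plasminogen, rose by 0.37 and Fetub, fetuin-B, by 0.26. With single arrays left out in turn, the call was lost for Mug1l1 with 14 of the 15, for Fetub with 13 and for Plg with 11. Alb, albumin, had a difference of -0.05 (adjusted p = 0.8).

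Other secreted products went in either direction. Timp1, an inhibitor of matrix metalloproteinases, fell by 1.34 (adjusted p = 0.0165), from 6.28 to 7.94 (median 6.90) in the low-numbered and from 5.13 to 6.23 (median 5.45) in the high-numbered biochips. It was the 1 called gene of 22 stellate cell and fibroblast markers, whose median was 0.02 and whose summed level was 934.2 to 1114 against 923.8 to 1133. Scgb1c1, a secretoglobin, fell by 1.38, with arrays 10 and 13 highest. Esm1, endocan, a proteoglycan known from endothelium, rose by 0.59, and Myct1, a MYC target also known from endothelium, by 0.59, both at dim levels (means 4.55 and 4.09). None of the 21 endothelial markers on the list was called in limma. An unadjusted limma p under 0.05 was reached by 7 of them, against 11% of all genes tested. Their median was 0.06, and their summed level was 659.4 to 759.9 in the low-numbered and 677.9 to 895.2 in the high-numbered biochips. Their part in the Esm1 and Myct1 values was not tested.

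Drug and transport genes lay in both directions. Abcb1b, a P-glycoprotein that pumps drugs out of cells, was abundant and read 11.45 and 11.51 in DMSO, 11.58, 11.52 and 11.23 at 10 µM and 11.81 and 11.61 at 100 µM on the low-numbered biochips. The high-numbered values were 10.94, 10.45 and 10.79 in DMSO, 9.53, 10.57 and 10.40 at 10 µM and 10.14 and 10.94 at 100 µM. All high-numbered values were below all low-numbered ones, with array 23 lowest, and the difference was -1.08 (SE 0.17, adjusted p = 0.0111). Slc22a8, an organic anion transporter, fell by 0.83 (adjusted p = 0.0207). These 2 were the called genes among 34 of bile acids and hepatobiliary transport, whose median was 0.01. Ces2e, a carboxylesterase, rose by 0.86 (adjusted p = 0.00566), and was called within 10 µM and within 100 µM as well. Slc20a1, a phosphate transporter, rose by 0.37. Of 26 targets of the drug receptors CAR and PXR, Abcb1b alone was called, and of 10 targets of the dioxin receptor 0 were, with 1 at an unadjusted p under 0.05 in limma.

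Signalling and transcription genes made up a further group. Phlda1, a pleckstrin-homology protein induced by growth signals, ranged from 8.33 to 9.03 (median 8.73) on the low-numbered biochips. It read 9.71, 9.87 and 9.88 in DMSO, 10.42, 11.14 and 10.18 at 10 µM and 9.73 and 10.21 at 100 µM on the high-numbered ones. The sets did not overlap over all 15 arrays, and the difference was 1.37 (SE 0.19, adjusted p = 0.00566). Id2, an inhibitor of DNA binding by helix-loop-helix factors, rose by 1.19, from 5.41 to 5.74 (median 5.55) against from 6.15 to 7.80 (median 6.86). Dusp5, a phosphatase that turns off ERK, rose by 0.95, Rassf6, a Ras-association protein, by 0.92, and Tgif1, a repressor in TGF-beta signalling, by 0.64. Of 28 immediate early genes Dusp5 alone was called, and Fos had a difference of -0.31 (adjusted p = 0.353).

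Nfil3, a repressor tied to the circadian clock, rose by 0.63 (adjusted p = 0.0098). It was the 1 called gene of 20 clock genes, whose median was 0.12. Per2 and Bmal1, core clock genes, had differences of 0.16 and 0.19 (adjusted p = 0.291 and 0.683), Dbp, a clock output, 0.06 (0.887), and Nr1d1, a clock repressor, 0.35 (0.494) with array 23 far above the others. Oxygen-sensing genes split. Egln3, a prolyl hydroxylase that marks hypoxia-inducible factors for destruction, rose by 0.77 (adjusted p = 0.0121), and Epas1, the factor HIF-2α, fell by 0.62 (adjusted p = 0.00566). The 33 hypoxia genes had a median of -0.02 with no further call.

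Among lower genes of signalling, Tsc1, which restrains the growth kinase mTORC1, fell by 0.52 and Lamtor2, part of the lysosomal scaffold that recruits that kinase, by 0.55. Pea15, an adaptor that holds ERK in the cytoplasm, fell by 0.69, and Crym, a thyroid hormone binding protein, by 0.47. Klhl22, an adaptor of a cullin ubiquitin ligase, rose by 0.54 (adjusted p = 0.0098). Structural and membrane genes were among the lower ones. Msn, moesin, which links actin to the membrane, fell by 1.16 (adjusted p = 0.00172), from 7.15 to 8.25 (median 7.81) against from 6.31 to 6.81 (median 6.48). Enpp5, an ectonucleotide pyrophosphatase family member, fell by 1.16, Tmem176b, a membrane protein, by 0.79, and Cd63, a tetraspanin of late endosomes, by 0.33.

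The remaining members act on RNA, chromatin and metabolism. Fam111a, a nuclear protease, rose by 1.79 (adjusted p = 0.0389) with a wide spread, from 2.79 to 5.19 (median 4.32) in the low-numbered and from 5.48 to 6.15 (median 5.72) in the high-numbered biochips, and was not called with 12 of the 15 single arrays left out in turn. Taf1d, part of the promoter factor of RNA polymerase I, rose by 0.62 and Elavl1, the RNA-binding protein HuR, by 0.32. Exosc8, a subunit of the RNA exosome, fell by 0.73 (adjusted p = 0.00566), the elongation factor subunit Supt4h1 by 0.40, the stress granule protein Ubap2l by 0.35 and the zinc finger gene Zfp61 by 0.87. H4c14, a histone H4 gene with near-identical copies elsewhere, fell by 0.74, a value that those copies make uncertain. In metabolism, Ndufa10, a subunit of respiratory complex I, fell by 0.69 as the 1 called gene of 68 in complexes I to V. Gpt, alanine aminotransferase, fell by 0.60, Idnk, a gluconate kinase, by 1.05 with array 23 lowest, and Atxn10, ataxin-10, by 0.42.

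**Figure D4:**
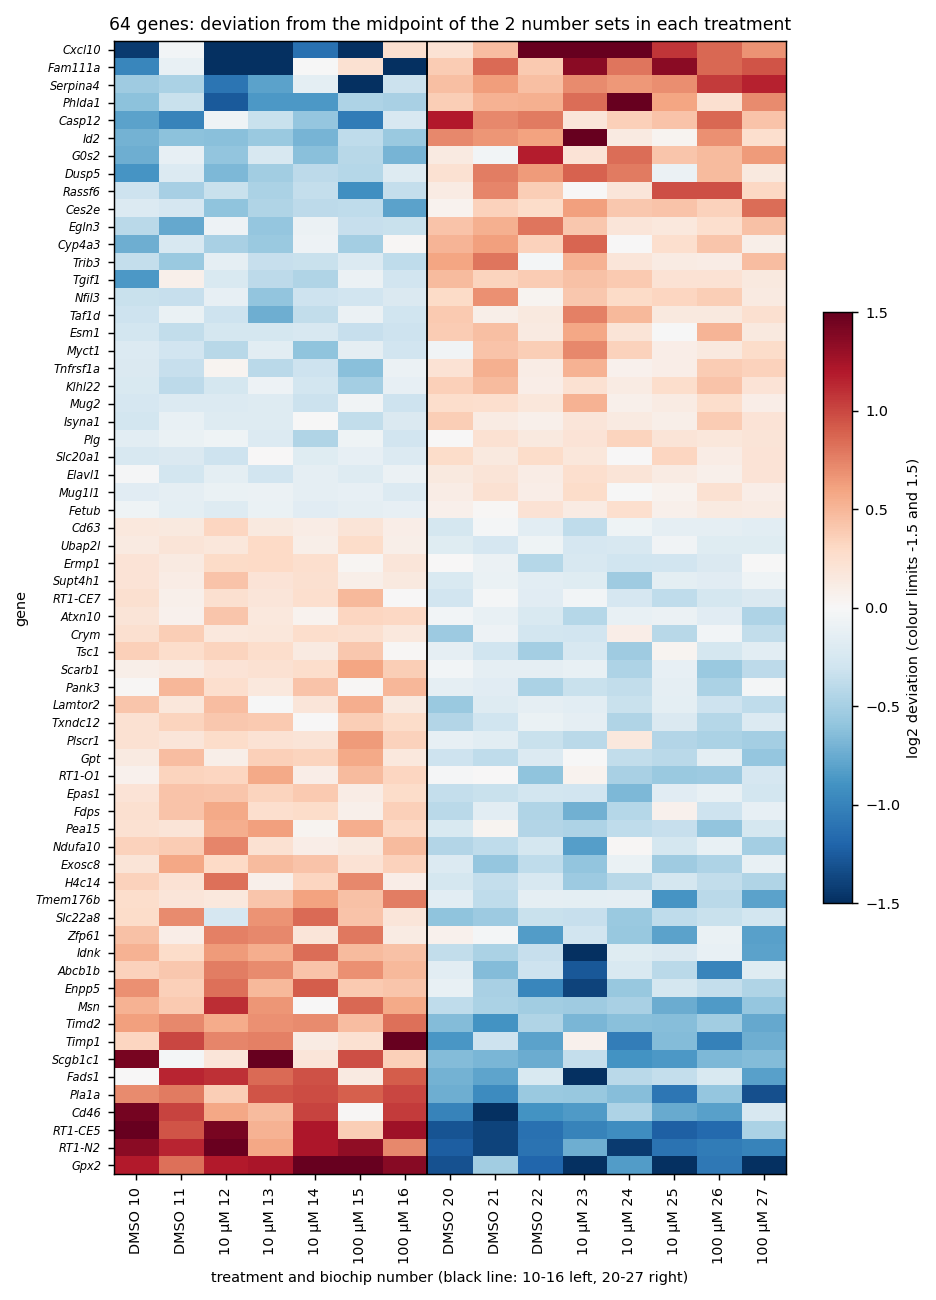
Deviation of each array (columns, low-numbered left of the black line and high-numbered right) from the midpoint of the 2 set means of its own treatment, on the log2 scale, for the 64 genes (rows) ordered by their difference. Red marks values above and blue values below the midpoint, with colours limited at -1.5 and 1.5; the 27 higher genes are on top and the 37 lower genes below, and array 23 gives the darkest blue in Fads1 and Idnk.

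Across the 64 genes, most differences were modest. For 45 the difference was under 2-fold, for 19 it was 2-fold or more, and for 4 (Gpx2, RT1-N2, RT1-CE5 and Cxcl10) it was 4-fold or more. In 47 genes (18 higher and 29 lower) the sets did not overlap over all 15 arrays, whatever the treatment. The choice of genes favours such separation. The share over all genes was not counted, but it cannot exceed the 1.34% that did not overlap within every treatment group. The number set took 46.8 to 96.1% of a gene's sum of squares (median 67.0%), and the treatment a median of 6.52%; the first follows from how the genes were chosen. Of the treatment differences of the 64 genes 0 were called in limma, as was so for all 14506 genes tested. The largest among the 64 were 0.71 at 10 µM and 0.68 at 100 µM in size. The genes were bright: 58 lay above the median level of all genes (5.79), and their own median was 7.81. The choice of genes may favour bright ones, which was not tested. They lay on 19 chromosomes.

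Without the test, 195 genes (1.34%) did not overlap within every treatment group. Just inside the threshold were Zfp61, Mug1l1 and RT1-O1 (each with an adjusted p of 0.0496), and just outside, also without overlap in any treatment group, were Snorc, Angptl4 and Pdia4 (0.0551 to 0.0564). The remaining 15 called genes overlapped in at least 1 treatment group. Hbb-b1, a globin chain of red blood cells, had the largest difference among them, 2.04 (SE 0.40, adjusted p = 0.0389), from 4.62 to 6.47 (median 5.33) in the low-numbered and from 6.35 to 9.02 (median 7.30) in the high-numbered biochips, with array 14 highest of the low-numbered set. It was the 1 called gene of 10 red blood cell markers, whose median was 0.05 and whose summed level was 244.2 to 341.6 against 308.6 to 958.8. Of the other 14, Pkia, Cxadr, Kdm6b, Mug1 and Frmd4b were higher, and Actn1, Gsto2, Steap4, Lrp2bp, Gckr, Epc2, Slc39a4, Cpa1 and Churc1 were lower.

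Each treatment group was also read on its own, from a fit of the 6 combinations of treatment and number set. Within DMSO 36 genes (0.248%) were called, within 10 µM 8 (0.0551%) and within 100 µM 12 (0.0827%). Gpx2, Pla1a, RT1-N2 and Timd2 were called within all 3. Of the 64 members 8 were called within DMSO, 7 within 10 µM and 6 within 100 µM, and 53 in none of them, so most members rest on the 15 arrays together. These counts moved with single arrays: the 36 became 2 without array 10, 10 without 11, 9 without 20, 20 without 21, 56 without 24 and 103 without 23. The 8 became 5 without array 10, 11 or 13, 4 without 20 and 376 without 25, and the 12 became 0 without array 15 or 27, 5 without 26 and 155 without 16. No array is shared between treatments, so the treatments can be set side by side. Biochips of a number set may share a cell isolation, so this is not independent replication. All 8 genes called within 10 µM had the same direction within DMSO and within 100 µM, where 47.6% and 53.9% of all genes did. Of the 12 called within 100 µM, 11 had it within DMSO and 12 within 10 µM, against 53.1% and 53.9% of all genes. Of the 36 called within DMSO, 21 (58.3%) had the same direction at 10 µM and 22 (61.1%) at 100 µM, where 47.6% and 53.1% of all genes did.

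For 3 genes (0.0207% of those tested) the difference between the number sets itself differed between treatments, by limma's F test of the interaction. Aknad1, a coiled-coil protein of unsettled function, read 9.82 and 9.78 in DMSO, 9.87, 9.90 and 9.85 at 10 µM and 9.72 and 9.95 at 100 µM on the low-numbered biochips. On the high-numbered ones it read 7.02, 7.30 and 6.90 in DMSO, 9.32, 9.72 and 9.99 at 10 µM and 9.64 and 9.80 at 100 µM. The 3 high-numbered DMSO arrays were low and all the others high, with differences of -2.73 within DMSO, -0.20 within 10 µM and -0.11 within 100 µM (interaction adjusted p = 0.0025). Gsta3, a glutathione transferase, had differences of 0.82 within DMSO, -0.51 within 10 µM and -0.24 within 100 µM, and Ddc, aromatic amino acid decarboxylase, of 1.33 within DMSO, -0.48 within 10 µM and -0.01 within 100 µM (interaction adjusted p = 0.0402 for both). The high-numbered DMSO arrays were the highest of all 15 for Gsta3 and Ddc. The next genes in order, Ddx21 and Dhx9, RNA helicases, and Ndufaf4, an assembly factor of complex I, had interaction adjusted p of 0.0703 to 0.0783. None of these 6 is among the 64. Of the 64, 6 had an unadjusted interaction p under 0.05, and 0 were called in limma. Over all 14506 genes tested, 1106 (7.62%) had such a p. The 3 calls became 0 without array 10 or 11, 1 without array 12, 13, 14, 20, 22, 24, 26 or 27, and 34 without array 16.

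**Figure D5:**
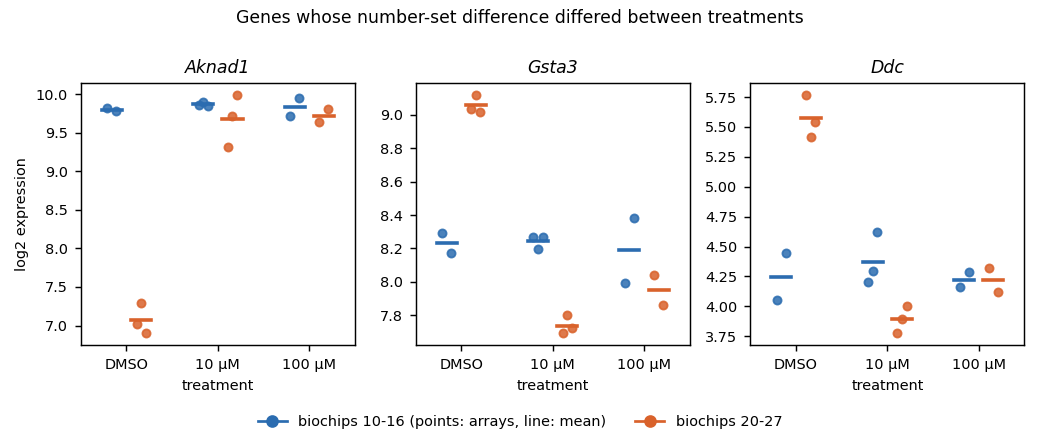
Log2 expression (vertical axis) of Aknad1, Gsta3 and Ddc in the 3 treatment groups (horizontal axis), with 1 point per array, blue for biochips 10 to 16 and orange for 20 to 27, and a line at each mean. The 3 orange DMSO points stand apart from every other point in each panel, near 7 for Aknad1 and above 9 for Gsta3.

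Genes with a known sex bias gave no call. Of 15 male-predominant liver genes 13 had a positive difference and 0 were called in limma, with a median of 0.22. An unadjusted limma p under 0.05 was reached by 8 of them, against 11% of all genes tested. Cyp2c11 and Cyp3a2, male-predominant cytochromes, had differences of 0.95 and 0.78 (adjusted p = 0.309 and 0.228), and Cyp2c12, the female-predominant one, -0.26 (0.415). Within DMSO, 10 µM and 100 µM the differences were -0.08, 1.90 and 0.76 for Cyp2c11 and 0.08, 1.25 and 0.90 for Cyp3a2. The 15 female-predominant genes had a median of -0.04, 0 calls and 5 at an unadjusted p under 0.05. In DMSO the male-predominant median was 0.17, at 10 µM 0.23 and at 100 µM 0.45. Other reference genes lay near 0: Actb -0.05, Gapdh -0.07, Col1a1 0.01 and Pecam1 0.06 (adjusted p = 0.872, 0.871, 0.986 and 0.892).

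The number of genes called depended on single arrays. Leaving out array 23 gave 129 genes between the sets and 111 within every treatment group, and leaving out array 11 gave 37 and 36, the lowest of both. The first count also fell below 79 by more than 1.5 times without array 10 (44), 12 (45), 13 (40), 14 (48), 16 (49), 20 (51) or 26 (46), and the second below 64 without array 10 (41), 12 (41) or 13 (38). Of the 64 genes, 26 stayed called with each array left out in turn and 38 lost the call at least once (23 with 8 or more of the arrays), 31 of them without array 13 and 2 without array 23. Without arrays 23, 15 and 24 together, 100 genes were called between the sets and 99 within every treatment group, of which 38 were among the 64. Array 25 is then the only high-numbered one at 10 µM and array 16 the only low-numbered one at 100 µM. With fewer arrays the condition of no overlap is easier to meet, so the 99 cannot be set against the 64. Over the alternatives tried, 0 of the values of the 64 genes changed sign, which the choice of genes without overlap largely fixes.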

How the data were processed

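RNA from each of 15 biochips was hybridised to its own Affymetrix array. The values used are log2 expression for 29214 probe sets, as the authors deposited them. RMA (background correction, normalization between arrays and probe summary) and Partek are named in the submitters' processing notes without settings. Such normalization draws the arrays to a like distribution (medians of 5.38 to 5.51). Without detection values, a dim gene has only its level to go by. The 15310 probe sets with 1 gene symbol in the platform annotation (15279 matched to RefSeq GRCr8 genes by identifier) were reduced to 14506 genes by taking the probe set of highest mean. The 13904 others were left out, and 0 columns belonged to other samples.

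Number sets were compared with limma 3.58.1 in R 4.3.3 (lmFit and eBayes, treatment as a term, 11 residual degrees of freedom), within treatments by a fit of 6 cell means (9 residual degrees of freedom), with Benjamini-Hochberg adjustment over all genes. Scripts were tested on simulated data. Calls are at an adjusted p under 0.05. Intervals are 95%. The rule for named genes took the 12 largest differences in each direction among genes differing within every treatment group, the leading genes of each list, the 6 of lowest interaction p and a preset group of reference genes; the rest of the 64 were named after their values were seen. The members and the 41 gene lists (1097 measured genes) were chosen with earlier results of these data known. Xist, Ddx3y, Eif2s3y, Kdm5d, Uty, Cyp2c7, RT1-A2 and Hba-a1 were not analysed here. Alternatives were a second quantile normalization, array quality weights, a filter on dim genes, trended robust moderation, other weightings, every probe set, and each array left out in turn.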

Additional observations from a re-analysis of the deposited data

Results flagged for a closer look

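Among the 114 genes looked at, in 228 groups (each gene in each number set), 18 had an array set apart from the others of its number set by more than Dixon's 95% critical value. Chance flags about 1 in 20 groups. Of the 18, 7 were in array 23 and 3 in array 15, and 4 were in genes that differ within every treatment group. Rassf6 on array 15 (100 µM) read 6.81 against 7.16 to 7.37 on the others of its set. Atxn10 on array 12 (10 µM) read 8.94 against 8.57 to 8.72 on the others of its set. Idnk on array 23 (10 µM) read 6.38 against 7.31 to 8.00 on the others of its set. Fads1 on array 23 (10 µM) read 5.78 against 7.24 to 7.98 on the others of its set.

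Outside those genes array 23 stood apart in others. RT1-Ba on array 23 (10 µM) read 7.36 against 4.99 to 5.99 on the others of its set. RT1-Da on array 23 (10 µM) read 8.23 against 5.28 to 6.51 on the others of its set. Nr1d1 on array 23 (10 µM) read 7.50 against 6.11 to 6.43 on the others of its set. Cyp7a1 on array 23 (10 µM) read 4.65 against 3.03 to 3.57 on the others of its set. Cyp1a1 on array 23 (10 µM) read 8.81 against 11.01 to 11.47 on the others of its set. The rest were spread over other arrays. Ddx3x on array 24 (10 µM) read 9.76 against 10.40 to 10.92 on the others of its set. Mup5 on array 10 (DMSO) read 2.85 against 3.31 to 3.44 on the others of its set. Angptl4 on array 12 (10 µM) read 5.13 against 5.74 to 6.15 on the others of its set. Utp14a on array 15 (100 µM) read 6.26 against 6.77 to 6.96 on the others of its set. Cdh5 on array 15 (100 µM) read 5.15 against 4.74 to 4.90 on the others of its set. Slc4a2 on array 14 (10 µM) read 5.82 against 6.16 to 6.37 on the others of its set. Cd8b on array 27 (100 µM) read 4.14 against 3.80 to 3.91 on the others of its set. Hbb-b1 on array 14 (10 µM) read 6.47 against 4.62 to 5.41 on the others of its set. Pecam1 on array 10 (DMSO) read 5.34 against 4.70 to 4.95 on the others of its set.

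The difference between the number sets itself differed between treatments for Aknad1 (limma interaction adjusted p = 0.0025), Gsta3 (0.0402) and Ddc (0.0402), each with the 3 high-numbered DMSO arrays apart from the other 12.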

How the results depend on the processing

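The 79 genes called between the number sets became 191 with array quality weights and 37 to 129 with 1 array left out in turn, and the 64 differing within every treatment group became 98 and 36 to 111. Without the 3 arrays of lowest quality weight, a choice made after seeing the data, the 64 became 99. Leaving out arrays makes the condition of no overlap easier to meet. This holds most for those 3, which leave a single array of a number set at 10 µM and at 100 µM. The other alternatives gave 64 to 100 and 52 to 79. Within DMSO the 36 became 123 with array quality weights, 16 from the DMSO arrays alone and 2 to 103 with 1 array left out. Within 10 µM the 8 became 18 with weights, 0 from those arrays alone and 4 (without array 20) to 376 (without array 25). Within 100 µM the 12 became 0 from those arrays alone and 0 (without array 15 or 27) to 155 (without array 16). The 3 interaction calls became 1 after a second quantile normalization or without dim genes, 10 with weights and 0 to 34 with 1 array left out. The cause was not tested. Of 1531 values of the 64 genes over their alternatives, 1156 stayed called and 0 reversed, and 21 genes stayed called throughout. The sign turned for 13 genes, 0 of them called. Without arrays 23, 15 and 24 it turned for Ddx3x (0.0529), Gsta3 (0.12), Dbp (-0.0504), Cyp7a1 (-0.16), Cyp2b1 (0.20), Cd163 (-0.0107), Col1a1 (-0.00389), Pecam1 (-0.0308). Over every probe set it turned for Ddx3x (0.0207). After a second quantile normalization it turned for Gsta3 (0.0463). Without the treatment term it turned for Gsta3 (0.0610), Cyp2b1 (0.0167). With equal weight of treatments it turned for Gsta3 (0.0271), Col1a1 (-0.00196). With array medians subtracted it turned for Gsta3 (0.0116). With array quality weights it turned for Cyp7a1 (-0.11), Col1a1 (-0.00675), Pecam1 (-0.0377). With 1 array left out the ranges were Gsta3 -0.13 to 0.0602, Ndufaf4 -0.0400 to 0.13, Dhx9 -0.00351 to 0.26, Cyp7a1 -0.11 to 0.18, Cyp1a1 -0.13 to 0.36, Cyp2b1 -0.45 to 0.19, Col1a1 -0.0214 to 0.0334, Pecam1 -0.0221 to 0.13, Actb -0.0819 to 0.000503, Gapdh -0.13 to 0.00906. No paired analysis was possible because no biochip number occurs in more than 1 treatment group.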

Other observations

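Of the 13904 unnamed probe sets, 29 (0.209%) were called between the number sets when all 29214 probe sets were tested together. Over all genes, the differences within DMSO and within 10 µM had a correlation of r = 0.123, those within DMSO and 100 µM of 0.185, and those within 10 µM and 100 µM of 0.228. The rank correlations of the same pairs were lower, at 0.0149, 0.109 and 0.15. Genes are not independent replicates, so no p is given. The difference had the same sign in all 3 treatments for 3965 genes (27.3%). G0s2, which rose, and Cd46, which fell, lie 4 coding genes apart in the RefSeq order of GRCr8.

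Further genes of the preset group, none of them called, had these differences: Hnf4a, a hepatocyte transcription factor, 0.20, Cyp3a23-3a1, a drug-metabolising cytochrome, -0.11, Cd163, a macrophage receptor, 0.39, Cyp7a1, of bile acid synthesis, 0.08, Cyp1a1 0.03 and Cyp2b1 -0.11.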
